A study of Mus musculus with 2 samples.

Results

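The genes described here are 30 that encode histone deacetylases, histone acetyltransferases and their coactivators, the scaffold proteins of corepressor complexes and acetyl-lysine readers of the BET family. They were chosen by name and function, not by a threshold on their signals, although earlier results of these data were known, and were found through the RefSeq accession of each array probe. All 30 had at least 1 probe, out of 20651 genes that could be matched in this way, and 29 of them were well above background on both arrays. Their transcripts were measured on 1-colour arrays, with 1 array for each of 2 genotypes, in mouse cultures polarised toward TH9 cells, CD4 T cells that make IL-9. One culture was wild-type and the other, called knockout here, was SIRT1flox/flox-CD4-Cre, designed to delete floxed Sirt1 through a Cd4-driven Cre that acts in T cells from the thymus onward, CD8 T cells included. Naive CD4 T cells (CD62L high, CD44 low) sorted from spleen and lymph nodes received, in both cultures, antibodies to CD3 and CD28 at 2 µg/ml each and human IL-2 at 100 U/ml. IL-4 at 10 ng/ml and TGFβ1 at 2 ng/ml were added for TH9 polarisation, and RNA was taken after 5 days by the sample labels and after 5 to 6 by the protocol. The strain and age of the mice, and whether animals were pooled, are not given in the sources used here.

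Acetylation of histone tails loosens chromatin and creates docking sites for bromodomain proteins. Acetyltransferases add the mark from acetyl-CoA and deacetylases remove it, the zinc-dependent HDAC enzymes by hydrolysis and the sirtuins by using up NAD. SIRT1, the gene targeted in this study, is therefore one of several enzymes that can take acetyl groups off histones and transcription factors. Most class I HDACs work inside large corepressor complexes, class IIa HDACs shuttle between nucleus and cytoplasm under the control of T cell receptor signals, and the coactivators p300 and CBP acetylate histones at enhancers. The comparison asks whether transcripts of this machinery differed between the cultures of the 2 genotypes.

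With 1 array per genotype there was no replicate check and no test between genotypes. Differences are given as knockout minus wild-type on the log2 scale, after each array was scaled to its 75th percentile (signals of 584 and 558), with the error that the scanner software gives for the spots. That error covers neither labelling nor the spread between cultures. It was 0.20 for every member at or above the median signal, Kat8 with its repeat spots included. For them it is nearly a fixed limit and does not measure the precision of each gene. Each array held 39429 gene probes, and the share of gene spots well above background was 57.1% for wild-type and 65.3% for knockout, from signals of 24.6 and 9.76 upward. The Sirt1 probe gave 3240 in the wild-type and 2920 in the knockout, a difference of -0.08 ± 0.20. Neither the floxed exons nor the place of the probe is given, so this signal does not check the genotype label, and every direction below rests on that label.

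The measured members lay within 2-fold between the arrays by each gene's brightest probe. Of the 29 members measured on both, 14 had more signal in the knockout and 15 less. The split was 18 and 11 with arrays centred on their median, 17 and 12 with quantile or loess normalization or the authors' deposited log2 values, and 10 and 19 in the mean over a gene's probes. By each gene's brightest probe 0 members reached 2-fold, while a dimmer probe of Brd2 was 3.31-fold lower. Of all 12958 genes measured on both arrays, 3.97% were at least 2-fold higher and 3.63% at least 2-fold lower, 7.60% in all. The members' median difference was -0.0017 and that of all genes 0.0037. The median size of a difference, whatever its sign, was 0.19 for the members and 0.29 for all genes. Most members were bright, and bright genes differed less: 21 members had a signal at or above the median gene, and among all genes that bright 3.60% differed by 2-fold or more, with a median size of 0.22. Of the members, 14 of 29 differed by more than the scanner error, and of all genes 60.6% did. In RNA from a whole culture, fewer cells that use a gene and less RNA per cell cannot be told apart.

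**Figure D1:**
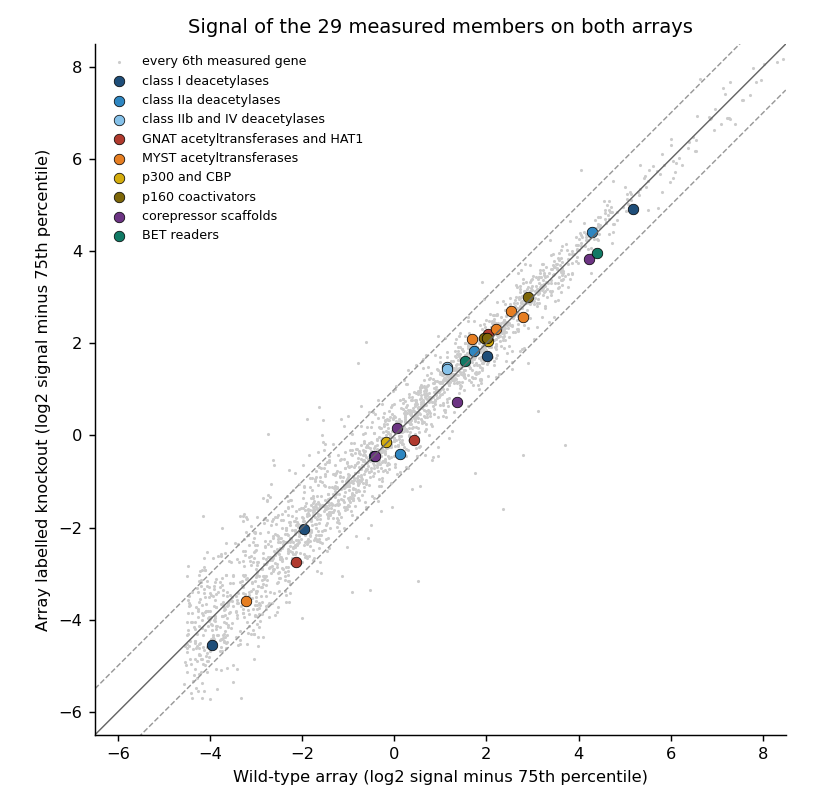
Scaled log2 signal on the array labelled knockout against the wild-type array for the 29 measured members, coloured by class, over every 6th measured gene in grey. The solid line marks equal signal and the dashed lines 2-fold. All 29 members lie between the dashed lines, 15 of them below the solid line.

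The highest difference was that of Kat8 and the lowest that of Rcor1. Kat8 encodes the MYST enzyme MOF, which acetylates histone H4, and gave 1.33 times the wild-type signal in the knockout. Rcor1 encodes CoREST, the scaffold that joins class I deacetylases to the demethylase LSD1, and was 1.57-fold lower. Their promoters, from RefSeq on GRCm38.p6, are shown because these genes mark the ends of the range. Each run is 300 bases on the plus strand, most of them before the start site, at chr7:127912267-127912566 for Kat8 (the first of its 2 listed starts) and chr12:111039117-111039416 for Rcor1. Capitals mark matches to a GC box, the ETS core or a CCAAT box on either strand.
Kat8: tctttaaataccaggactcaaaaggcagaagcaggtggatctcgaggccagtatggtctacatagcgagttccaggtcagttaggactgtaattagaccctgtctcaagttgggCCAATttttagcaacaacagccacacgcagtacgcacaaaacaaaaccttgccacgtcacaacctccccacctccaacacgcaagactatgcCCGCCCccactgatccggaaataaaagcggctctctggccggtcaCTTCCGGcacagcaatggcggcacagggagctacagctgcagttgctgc
Rcor1: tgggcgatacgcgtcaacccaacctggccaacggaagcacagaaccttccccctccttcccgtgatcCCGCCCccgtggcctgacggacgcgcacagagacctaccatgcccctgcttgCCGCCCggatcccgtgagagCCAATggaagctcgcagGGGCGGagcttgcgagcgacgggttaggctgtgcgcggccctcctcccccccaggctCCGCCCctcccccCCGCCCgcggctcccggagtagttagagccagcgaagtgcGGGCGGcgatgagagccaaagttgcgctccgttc
The Kat8 window held 12 CpG dinucleotides, 1 GC box, 1 ETS core and 1 CCAAT box. The Rcor1 window held 31 CpG dinucleotides, 6 GC boxes and 1 CCAAT box, and no matches overlapped in either window.

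CpG-rich promoters were common among the members, a property the choice of genes did not use. RefSeq's table listed 36 promoters for 24 of the 30 members. They held a median of 21 CpG dinucleotides in 300 bases, from 0 at a start of Hdac9 to 49 at Crebbp and Ncoa1, while all 32851 promoters of the table had a median of 7. The table covers 27025 genes and was not limited to those measured here, so measured genes as a set were not compared. Both strands were searched. A GC box (GGGCGG) was in 63.9% of the member promoters and 35.7% of all promoters, and an ETS core (CCGGAAG) in 16.7% and 8.86%. A CCAAT box (CCAAT) was in 38.9% and 37.4%, a TATA box (TATAAA) in 8.33% and 13.6%, and an E-box (CACGTG) in 8.33% and 7.15%. The cAMP response element (TGACGTCA) was in 0 of the 36 and in 1.79% of all. Promoters of 1 gene can overlap in sequence, and a match does not show binding.

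All 4 class I deacetylases, of which HDAC1, HDAC2 and HDAC3 work in large corepressor complexes, had less signal in the knockout, 3 of them beyond the scanner error, with a median difference of -0.29. Of all genes measured on both arrays 49.6% were lower, and 3963 of 12958 were lower beyond the scanner error. Hdac2 was within its error, and the signs of Hdac1 and Hdac2 changed with the processing. Hdac1 gave 21300 in the wild-type and 16800 in the knockout (-0.28 ± 0.20), and its other probes gave -0.38 and -0.33. The 3 probes of Hdac1 were thus all lower. With another background correction (normexp) Hdac1 turned to 0.11. Hdac3, the catalytic subunit of NCoR complexes, had signals of 2370 and 1840 (-0.30 ± 0.20) on its single probe, and -0.05 with normexp. Hdac8, which deacetylates cohesin, was dim, with signals of 37.3 and 23.9 and a difference of -0.58 ± 0.30, which was -1.21 with normexp. Genes as dim as Hdac8 had a median difference of -0.37, and its other probe, below background on the wild-type array, gave -0.11.

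Hdac2, the close paralogue of Hdac1, had 1 probe spotted 10 times on each array. Its signals ranged from 145 to 156 in the wild-type, with a median of 150.5, and from 129 to 141 on the other, with a median of 137.5. After scaling the spots of both arrays overlapped, and the difference of -0.08 turned positive in 4 of 7 alternative settings, at 0.10 or less, and was -0.50 with normexp. Kat8 had repeat spots too. Its 8 usable spots on the wild-type array ranged from 1840 to 1920 (mean 1870 ± 23.3, SD) and its 10 spots on the other from 2330 to 2440 (mean 2380 ± 32.7). The Kat8 spots did not overlap between the arrays, scaled or not, and the difference was 0.41. The SD over spots was 0.018 and 0.020 on the log2 scale for Kat8 and 0.028 and 0.043 for Hdac2. Repeat spots share 1 RNA sample, so they measure the array and not the cultures.

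**Figure D2:**
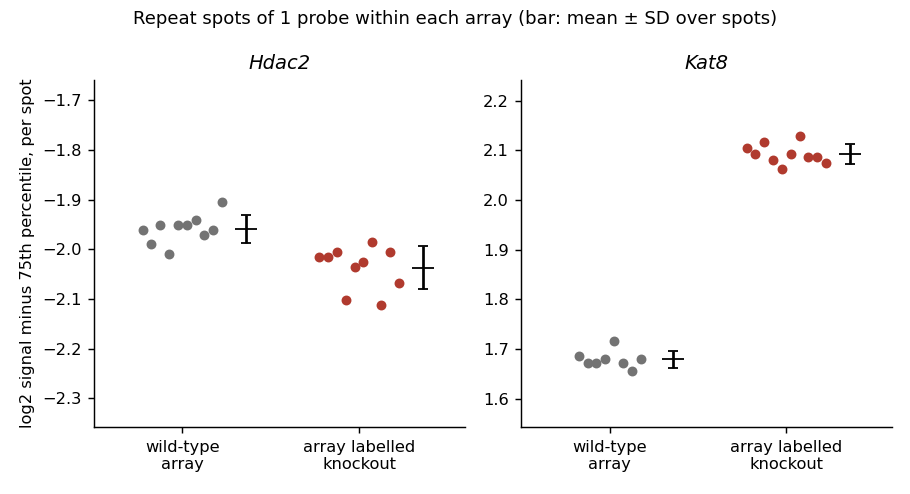
Scaled log2 signal of each repeat spot of the Hdac2 and Kat8 probes on the wild-type array (grey) and the array labelled knockout (red), with the mean and SD over spots beside them. Both panels span the same range of the axis. The Kat8 spots are separate, 8 against 10 of them, and the Hdac2 spots overlap.

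Class IIa deacetylases, which repress MEF2 target genes until kinases send them out of the nucleus, were split. Hdac9 was lower, with signals of 634 and 423 (-0.52 ± 0.20). It kept a negative value in all 7 alternatives, between -0.52 and -0.34. Of these, no background filter and the mean over probes could not change the value of its single probe. Hdac7, the member best known from thymocytes, had signals of 11400 and 12000 (0.14 ± 0.20), Hdac5 had 1930 and 1990 (0.11 ± 0.20) and Hdac4 had 433 and 409 (-0.02 ± 0.20). These 3 differed by less than the scanner error.

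The partners of the class IIa enzymes ranged more widely, from -1.34 to 0.55. Of 13 measured kinases and MEF2 factors, 3 were at least 2-fold lower and 0 at least 2-fold higher, and the median was -0.13. Of all measured genes 3.63% were at least 2-fold lower. All 3 lay below the median signal, where 11.6% of all genes differed by 2-fold or more in either direction. Mark2, a kinase that phosphorylates class IIa enzymes, was dim, with signals of 59.8 and 22.6 (-1.34) where genes as dim had a median of -0.20. Mef2c, a MEF2 factor also prominent in B cells, had signals of 458 and 209 (-1.07), and Mef2b, known from germinal centre B cells, had 40.0 and 16.1 (-1.25) where genes as dim had a median of -0.41. The other MEF2 factors, Mef2d at -0.84 (-0.54 by its dimmer probe) and Mef2a at -0.33 (-0.01 by its dimmer probe), lay below zero too, as all 4 did. Mef2c was within 2-fold in 3 of 7 alternatives, at -0.89 the nearest to zero. All 7 measured B cell markers were lower in the knockout, with a summed signal, in units of each array's 75th percentile, of 167 in the wild-type and 139 in the knockout, and their part in the MEF2 values was not tested.

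The class IIb enzymes were both higher on the array labelled knockout. Hdac6, the cytoplasmic deacetylase of tubulin, had signals of 1300 and 1570 (0.34 ± 0.20) and 845 and 1070 on its other probe (0.41). Hdac10, a polyamine deacetylase, had signals of 1300 and 1520 (0.29 ± 0.20) and 524 and 589 on its other probe (0.23). Both genes had 2 probes above the scanner error and kept their sign in all 7 alternatives, from 0.32 to 0.51 for Hdac6 and from 0.26 to 0.51 for Hdac10. Hdac11, the only class IV enzyme, lacked a signal well above background in both cultures, at signals of 5.24 and 2.10, and no fold is given.

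Among the GNAT acetyltransferases and HAT1, 2 of 3 were lower. Kat2b, which encodes PCAF, had signals of 133 and 83.1 (-0.61 ± 0.21), 1.53-fold lower. Hat1, the enzyme that acetylates newly made histone H4 before it enters chromatin, had signals of 787 and 521 (-0.53 ± 0.20), with its dimmer probe at -0.18. Kat2a, which encodes GCN5 of the SAGA complex, had signals of 2380 and 2570 (0.18 ± 0.20), while its dimmer probe gave -0.52 at signals of 47.7 and 31.8. Kat2b and Rcor1 were the members past 1.5-fold, both lower, 2 of 29, where 11.9% of all genes were lower by as much. All 12 proliferation genes had less signal in the knockout, the median being -0.65 and the summed scaled signal 78.2 against 60.3. Top2a, which untangles replicated DNA, was 2.83-fold lower and the cyclin gene Ccnb1 was at -1.25. Their part in the value of Hat1, an enzyme tied to the making of new chromatin, was not tested.

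The MYST acetyltransferases had both directions, 3 higher and 2 lower. Kat8 was the highest at 0.41 ± 0.20, between 0.39 and 0.59 over 7 alternatives. Kat6a (MOZ) had signals of 3360 and 3650 (0.19 ± 0.20) and Kat5 (TIP60) had 2680 and 2780 (0.12 ± 0.20), both within the error. Kat7 (HBO1) had 4030 and 3320 (-0.21 ± 0.20), which turned to 0.15 with normexp. Kat6b (MORF) was dim, with 62.7 and 46.5 (-0.37 ± 0.24), and was negative in all 7 alternatives, from -0.90 to -0.16.

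Subunits of acetyltransferase complexes were within 2-fold in all measured cases but 1, a partner of KAT8. Of 37 measured subunits 15 were higher and 22 lower, and the median was -0.07. Of all measured genes 7.60% differed by 2-fold or more, in either direction. Kansl1, the scaffold of the NSL complex that contains KAT8, was past 2-fold, with signals of 4150 and 1690 (-1.23). Its dimmer probe gave -1.36, and with normexp Kansl1 was at -0.95, within 2-fold. In the MSL complex, the other home of KAT8, Msl3 had -0.62 and Msl1 had 0.60 by its brighter probe and -0.49 by the other. Supt20, a SAGA subunit, had -0.82. The enzyme gene Kat8 was higher in the culture in which the scaffold gene Kansl1 was lower.

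The general coactivators differed by less than the scanner error in the main scaling. Ep300 (p300) had signals of 513 and 503 (0.04 ± 0.20) and Crebbp (CBP) had 2410 and 2300 (-0.0017 ± 0.20). The p160 coactivators, which bring p300 and CBP to nuclear receptors, gave 0.17 for Ncoa1 (2250 and 2420), 0.10 for Ncoa2 (2360 and 2420) and 0.12 for Ncoa3 (4340 and 4510). With normexp Crebbp was at 0.31, Ncoa1 at 0.37, Ncoa2 at 0.30, Ncoa3 at 0.28 and Ep300 at -0.02. Centring on the array median, which moves the median of all genes to 0.18, put the p160 genes between 0.28 and 0.35. In those settings the p160 genes were thus past 0.20, an error that belongs to the processed signal and not to normexp. With normexp the median of all genes was -0.09. Other bright members such as Hdac1 (from -0.28 to 0.11) rose too, while dim ones such as Hdac8 (from -0.58 to -1.21) fell. A further probe of Ncoa1 had signals of 376 and 581 (0.69), 1.62-fold higher, while the 2 brighter probes gave 0.17 and 0.18.

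Corepressor scaffolds gave different values between paralogues, with a class median of -0.22. Rcor1 had signals of 1510 and 919 (-0.65 ± 0.20) and was negative in all 7 alternatives, from -0.85 to -0.48. The -0.85 takes in a second probe, below background on the wild-type array, at -1.04. Sin3b, scaffold of a SIN3 complex of HDAC1 and HDAC2, had 11000 and 7900 (-0.41 ± 0.20), and ranged from -0.91 to -0.21 over the alternatives. The -0.91 takes in a probe below background on both arrays, at -1.40. Sin3a, the paralogue of Sin3b, had 609 and 621 (0.09 ± 0.20). Sin3b was past the scanner error and Sin3a was not, and the difference between them has no test. Ncor1, the platform of HDAC3, had -0.02 ± 0.20 by its brightest probe (438 and 412), -0.44 by another (127 and 89.2) and 0.46 by the third (92.2 and 121). The 3 Ncor1 probes carry different RefSeq transcript accessions and gave no common direction.

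Deacetylase complexes as a whole were centred on zero. Of 34 measured subunits 17 were higher and 17 lower, with a median of -0.0032. Past 2-fold was 1 of the 34, where 7.60% of all measured genes were, in either direction. That 1 was Brms1, a subunit of the SIN3 complex, with signals of 195 and 79.5 (-1.23). Brms1 stayed past 2-fold in all 7 alternatives. Tbl1xr1, which exchanges corepressors for coactivators in the NCoR complex, was at -0.78, Arid4b of the SIN3 complex at -0.58 and the histone chaperone Rbbp4 at -0.46.

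Of the BET readers, which bind acetylated histones and recruit the elongation machinery, Brd2 was lower. Its brighter probe had signals of 12400 and 8740 (-0.44 ± 0.20) and its dimmer probe 137 and 39.6 (-1.72 ± 0.22), 3.31-fold lower. The dimmer probe was the 1 of 44 member probes above background on both arrays that passed 2-fold lower, where 4.31% of all such probes did. Genes as dim had a median of -0.07, and both Brd2 probes carry the same accession. Their values lay 1.29 apart, and the range was wider in 6.03% of the 2902 genes with several probes above background. Brd2 was at -1.08 in the mean over probes and at -0.16 with normexp. Brd3 had signals of 1700 and 1720 (0.08 ± 0.20) by its brightest probe and -0.28 and -0.33 by the dimmer ones.

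**Figure D3:**
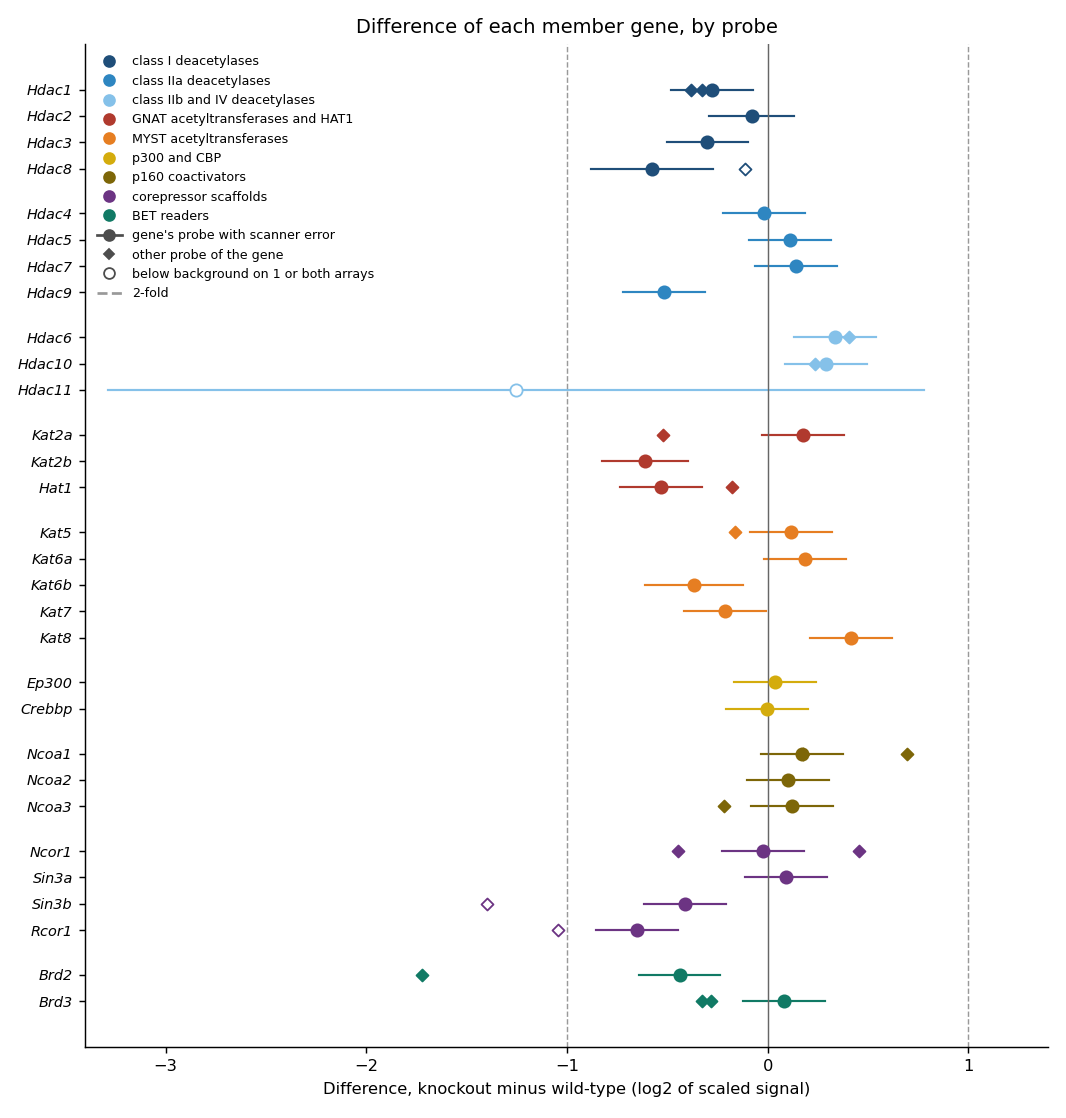
Difference of each of the 30 members on the log2 scale, by class. Circles show the probe taken for the gene with its scanner error, diamonds the other probes, and open symbols probes below background on 1 or both arrays. The dashed lines mark 2-fold. Of the filled symbols, the dimmer Brd2 probe at -1.72 is past 2-fold.

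Probes of the same gene set a second measure of error. Of 11 members with several probes above background on both arrays, the probes of 5 (Kat2a, Kat5, Ncoa3, Ncor1 and Brd3) differed in sign, where 40.1% of all such genes did. The members' median range between probes was 0.35 and that of all such genes 0.33, against a median size of difference of 0.19 over the 29 measured members. Hdac10 (0.06), Hdac6 (0.07) and Hdac1 (0.11) had the narrowest ranges. In 4 of the 5 genes the dimmer probes were the lower ones. Over all genes the 1296 dimmest, with signals between 16.6 and 48.0, had a median difference of -0.35 and the 1296 brightest one of 0.04. Of 8 members below the median signal 7 were lower, as were 3624 of all 6479 genes there. Of 21 members at or above it 13 were higher, as were 3680 of all 6479 genes there.

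The other readers and acetyltransferases that were measured also stayed within 2-fold by each gene's brightest probe. Of all measured genes 7.60% did not. The 26 measured readers beside BRD2 and BRD3 were 13 higher and 13 lower, with a median of 0.04. Trim33, a bromodomain protein of TGFβ signalling, was at -0.69 and Sp140, a reader of immune cells, at -0.47. Among 5 other acetyltransferases Naa40, which acetylates the N-terminus of histones, was at -0.85 and Naa60, an N-terminal acetyltransferase of the Golgi, at 0.25.

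Genes that supply the donor and those of the second family of deacetylases lay within 2-fold too, by each gene's brightest probe. Of 8 genes that supply acetyl-CoA 5 were higher and 3 lower, with a median of 0.12. Acss2, which makes acetyl-CoA from acetate, had signals of 1080 and 1490 (0.53), and -0.39 by its dimmer probe. Acly, which makes it from citrate, had 6870 and 8470 (0.37), and turned to -0.27 in the mean over probes. That mean takes in a probe of Acly below background on both arrays, at -0.90. The 7 sirtuins had a median of -0.03, with Sirt7 at 0.26 and Sirt4 at -0.25. Sirt7 turned to -0.07 in the mean over probes.

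**Figure D4:**
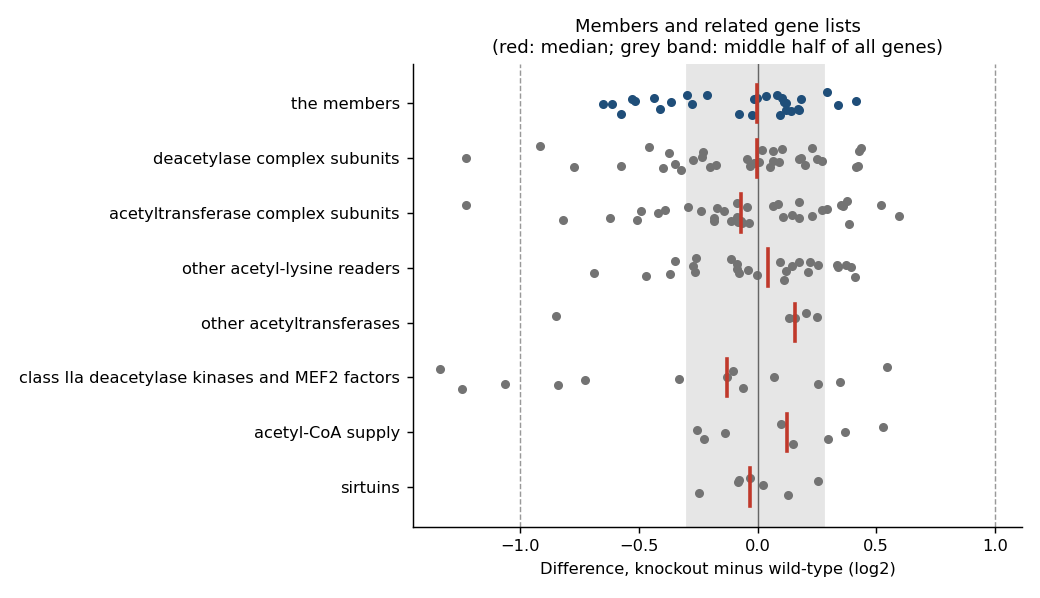
Differences on the log2 scale of the 29 measured members (blue) and of the genes of 7 related lists (grey), with each median in red. The grey band spans the middle 50% of all 12958 measured genes, from -0.30 to 0.28, and the dashed lines mark 2-fold. The points past 2-fold are Brms1, Kansl1, Mark2, Mef2b and Mef2c, all lower.

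Markers of cell types other than CD4 T cells gave signal on both arrays and differed between them. All 9 T cell markers were measured, and their scaled signals summed to 134 in the wild-type and 142 in the knockout. Cd3e, a chain of the T cell receptor complex, was at -1.13 and the adaptor gene Lat at 0.92. Macrophage markers were higher in 7 of 7 measured of 9 (sum 16.1 against 31.7), with Mrc1 at 1.39, while Cd163 was below background on both arrays. CD8 and NK cell markers were higher in 7 of 8 (34.3 against 67.2), Klra1 most at 1.56 and Ncr1 at 0.64 (-0.46 with normexp). The rise of that sum rests largely on Klra1, the brightest of them, with signals of 8790 and 24700. The median difference of these markers was 0.39. Mast cell and basophil markers were higher in 3 of 5 (1.61 against 2.47), led by Cpa3 at 1.73 and Fcer1a at 1.49 (-0.0037 with normexp), while Mcpt8 (-0.80) and Tpsb2 (-0.74) were lower and Ms4a2 was below background. Of 5 red cell and stromal markers (sum 3.16 against 6.04) the fibroblast and pericyte genes Col1a2 (1.28), Col3a1 (1.03) and Pdgfrb (1.22) were higher, and the red cell gene Alas2 (-1.15) and the endothelial gene Pecam1 (-0.44) were lower. B cell markers were lower in 7 of 7, Blk most at -1.41 and Cd79a at -1.18. These enzymes are broadly expressed across cell types, and the part of the cell mixture in their values was not tested.

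Of 29 members 18 kept their sign in all 7 alternative settings, 9 higher and 9 lower. Of the 7, no background filter leaves these values as they are, and the mean over probes leaves those of members with 1 probe. The share of all genes that kept their sign is not given here. The higher ones were Hdac5, Hdac6, Hdac7, Hdac10, Kat6a, Kat8, Ncoa1, Ncoa2 and Sin3a, and the lower ones Hdac3, Hdac8, Hdac9, Kat2b, Hat1, Kat6b, Sin3b, Rcor1 and Brd2. Centring on the array median moved the median over all genes to 0.18 and the share of all genes below zero from 49.6% to 33.7%.

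**Figure D5:**
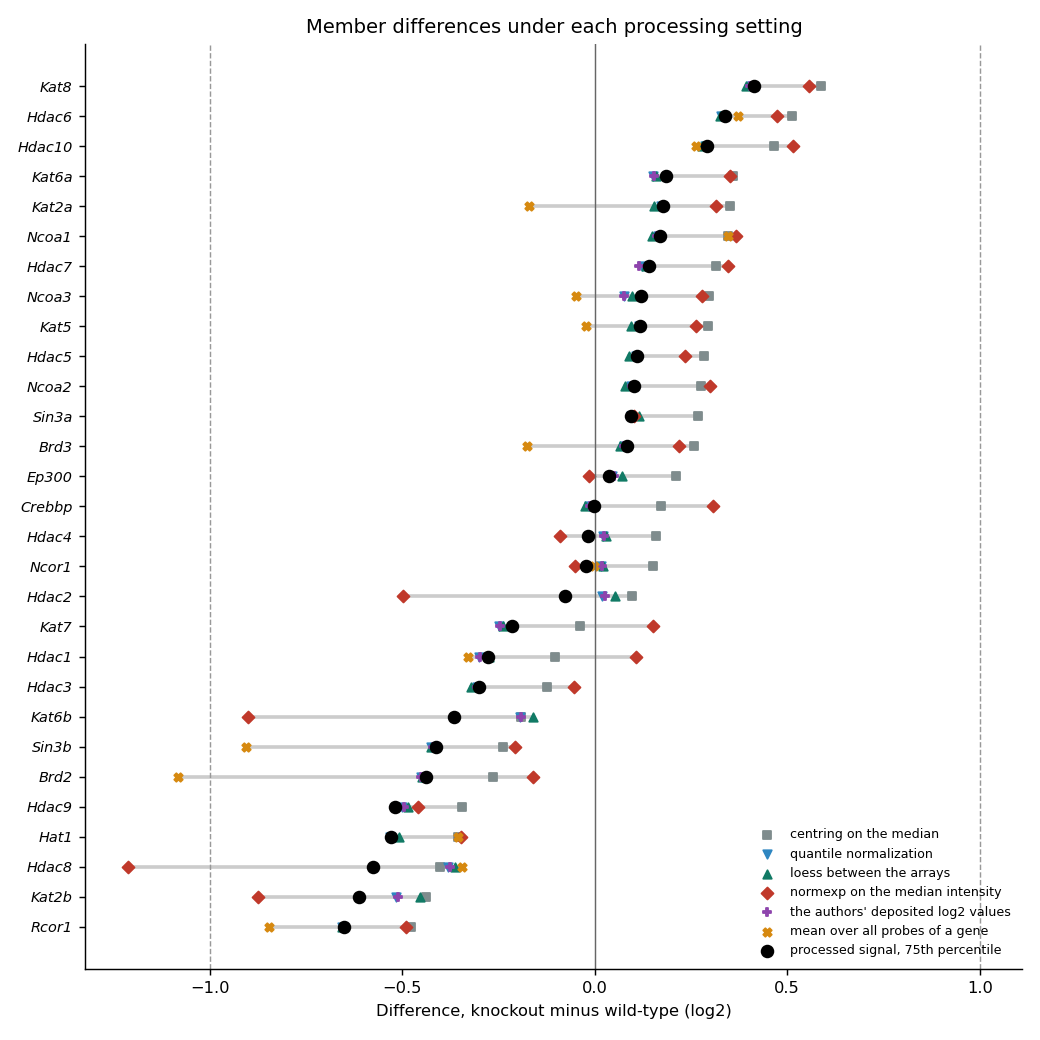
Difference of each measured member on the log2 scale under the setting of the text (black) and 6 other ways of processing, ordered by the black points, with a grey line over the range. The dashed lines mark 2-fold. Hdac8 with normexp (-1.21) and Brd2 in the mean over probes (-1.08) are the points past 2-fold.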

How the data were processed

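Total RNA of 2 cultures was labelled with Cy3 and hybridised to 1-colour arrays, per the labels' protocols. The scanner output was read by Agilent Feature Extraction (version 11.0.1.1), as both the submitters' processing notes and the headers say. Per the file headers, the deposited intensity is a background-subtracted processed signal, and the files also hold its error, a median signal and flags. The authors' deposited value table holds log2 values whose normalization and centring are not given in the sources used here. Set against the scanner values, 0 of 46 single-spot member probes in that table departed by over 0.5 (log2) from the running median over 101 probes.

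Controls and flagged outliers (228 and 138 of 43020 gene spots) were left out, and 0 gene spots were saturated. Spots of a probe were averaged as log2 values, and each array's 75th percentile over gene spots was subtracted. By RefSeq accession without its version (GRCm38.p6), 27220 of 39411 probes were given a gene, and the other 12191 were not analysed here. The headers name another build, so probes have no positions here. A gene took its brightest probe that was well above background on either array, and counted as measured if that probe was so on both. The scanner error combines both arrays' relative errors. A median or gene was said to move when it shifted by over 0.20, the members' median scanner error. Values of genes of like signal are medians over 1001 genes.

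Slide and scan were the same for both arrays per the headers. No p-value was computed. The functions were tested on simulated data. Tools were Python 3.11.15, statsmodels 0.14.6 (loess), R 4.3.3 and limma 3.58.1 (normexp, offset 50, on the median intensity). The members and lists were chosen with earlier results of these data known. The genes named were all members, Sirt1, up to 4 genes past 2-fold of each related list or its 2 widest, and the 2 widest of each marker list, and 1 gene that this rule takes is not reported here. Mef2a, Mef2d, Tbl1xr1, Arid4b, Rbbp4, Msl1, Msl3, Supt20, Col3a1, Alas2, Pecam1, Mcpt8 and Tpsb2 were chosen after their values were seen.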

Additional observations from a re-analysis of the deposited data

How the results depend on the processing

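Alternatives were the array median for scaling, quantile and loess normalization, normexp background correction, the authors' deposited log2 values, a mean over a gene's probes and no background filter, 7 in all. No background filter leaves the value of a measured gene as it is, and the mean over probes does so for a gene with 1 probe. No paired analysis was possible because each genotype has 1 array, and no replicate could be left out. The count of members at least 2-fold higher stayed at 0 in all of them and at thresholds of 1.5-fold and 3-fold. The count at least 2-fold lower was 1 with normexp (Hdac8), 1 in the mean over probes (Brd2), 1 without the background filter (Hdac11, whose signal is below background) and 2 at 1.5-fold. The median of the corepressor scaffolds moved from -0.22 to -0.42 in the mean over probes. That mean takes in dim probes, below background on both arrays for Sin3b and on the wild-type array for Rcor1. The median of the 2 BET readers moved from -0.18 to 0.030 with normexp and to -0.63 in the mean over probes. The medians of the other classes and related lists moved by less than 0.20. Of single members, 12 of 29 moved by more with normexp, 5 in the mean over probes and 2 with loess. The marker Fcer1a went from 1.49 to -0.0037 with normexp. The cause was not tested. The number of arrays limits the precision of every value.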
